A study of Mus musculus with 10 samples.

Results

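The enzymes that build the sugar chains of mucins and other glycoproteins, of glycolipids and of proteoglycans were measured as RNA in the distal colon of mice with and without T-cell colitis. They were chosen by gene name as the polypeptide GalNAc transferases (Galnt), the core 1 galactosyltransferase and its chaperone (C1galt), the branching enzymes (Gcnt), the β-linked N-acetylglucosaminyl-, N-acetylgalactosaminyl- and galactosyltransferases (B3gn, B3gal, B4gal), the fucosyltransferases (Fut and a digit), the sialyltransferases (St3gal, St6gal, St8sia) and the carbohydrate sulfotransferases (Chst). By this rule 93 genes were members, of 18193 genes with a probe set annotated to a single gene. The families held 18 Galnt, 2 C1galt, 4 Gcnt, 9 B3gn, 7 B3gal, 10 B4gal, 9 Fut, 6 St3gal, 8 St6gal, 6 St8sia and 14 Chst genes. The Fut group included the pseudogene Fut4-ps1, whose probes may share sequence with Fut4, so its values are uncertain.

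Colitis was set off by T-cell transfer into Rag1-/- mice, which make no T or B cells of their own. Every animal, the controls included, was a C57BL/6 Rag1-/- mouse injected with T cells at 10 weeks of age, killed 2 to 3 months later and 4 to 5 months old. The 6 inflamed mice received naïve T cells, and the labels call 3 of their colons severely and 3 moderately inflamed. The 4 control mice received regulatory T cells (Tregs) and had non-inflamed colons. All groups therefore carried transferred T cells, and no group was left without a transfer. Each mouse gave 1 Affymetrix array of RNA from snap-frozen distal colon, taken from the rectum up to where the proximal colon begins.

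Mucin-type O-glycosylation starts in the Golgi when a Galnt enzyme joins GalNAc to serine or threonine. C1galt1 then makes core 1, or B3gnt6 makes core 3, which is typical of the colon, and Gcnt enzymes branch these cores. Chains are lengthened by alternating galactose and GlcNAc and capped with fucose, sialic acid or sulfate, and the same capping enzymes also act on N-glycans and glycolipids. In the colon these glycans make up most of the mass of mucins, feed and anchor bacteria, and on leukocytes and vessels serve as ligands of the selectins.

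Values are on the log2 scale that RMA returns, in which 1 unit is a 2-fold difference, and probe sets of different genes differ in brightness for technical reasons, so levels are compared between colons only. The array medians lay between 5.36 and 5.40 and the lower quartiles between 3.82 and 3.92. The mean of the chosen probe set lay below every lower quartile for 8 members and above every array median for 67. In whole tissue, fewer cells of a type and less RNA per cell cannot be told apart. The 20 pan-epithelial markers averaged 11.50 to 11.65 per inflamed colon and 11.44 to 11.50 per control colon, with 7 higher, 3 lower and 10 that did not pass, among them Cldn4 (a claudin of tight junctions) higher by 1.58 and Ehf (an epithelial transcription factor) with a difference of -0.77. The leukocyte list averaged 9.05 to 10.40 in inflamed and 6.40 to 6.55 in control colons, with 6 of 6 genes higher, and the smooth muscle list averaged 9.64 to 10.51 in inflamed and 11.44 to 11.86 in control colons, with 7 of 7 lower. Markers of B and plasma cells averaged 3.79 to 3.98 in inflamed and 3.55 to 3.83 in control colons, close to the lower quartile. The Rag1 probe set lay between 4.80 and 5.15 in all colons of this single genotype and checks no label. The part of shifting cell types in the differences below was not tested.

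Inflamed colons differed from control colons in both directions. Of the 93 genes, 20 rose, 25 fell and 48 did not pass (limma, Benjamini-Hochberg over 18193 genes, adjusted p under 0.05, two-sided). Over all genes tested 18.5% rose and 21.2% fell, 39.7% in all, against 21.5%, 26.9% and 48.4% of the members. The median difference of the members was 0.00 and that of all genes 0.03, inflamed minus control on the log2 scale. A change of at least 2-fold was called for 2 members upward and 7 downward, where 3.5% of all genes passed upward and 4.6% downward. The inflamed values all lay above the control values for 14 members and all below for 19, or 15.1% and 20.4%, against 14.6% and 17.1% of all genes. Among the 45 members past the test the 2 groups of values were apart for 32 and overlapped for 13. Set relative to the mean of the pan-epithelial list, 14 members were higher and 33 lower, and the share of higher calls over all genes was 28.8% in place of 46.7%. That reference moved the median of all genes to -0.08, and no called member took the opposite sign under it or any other setting in which it was tested.

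**Figure D1:**
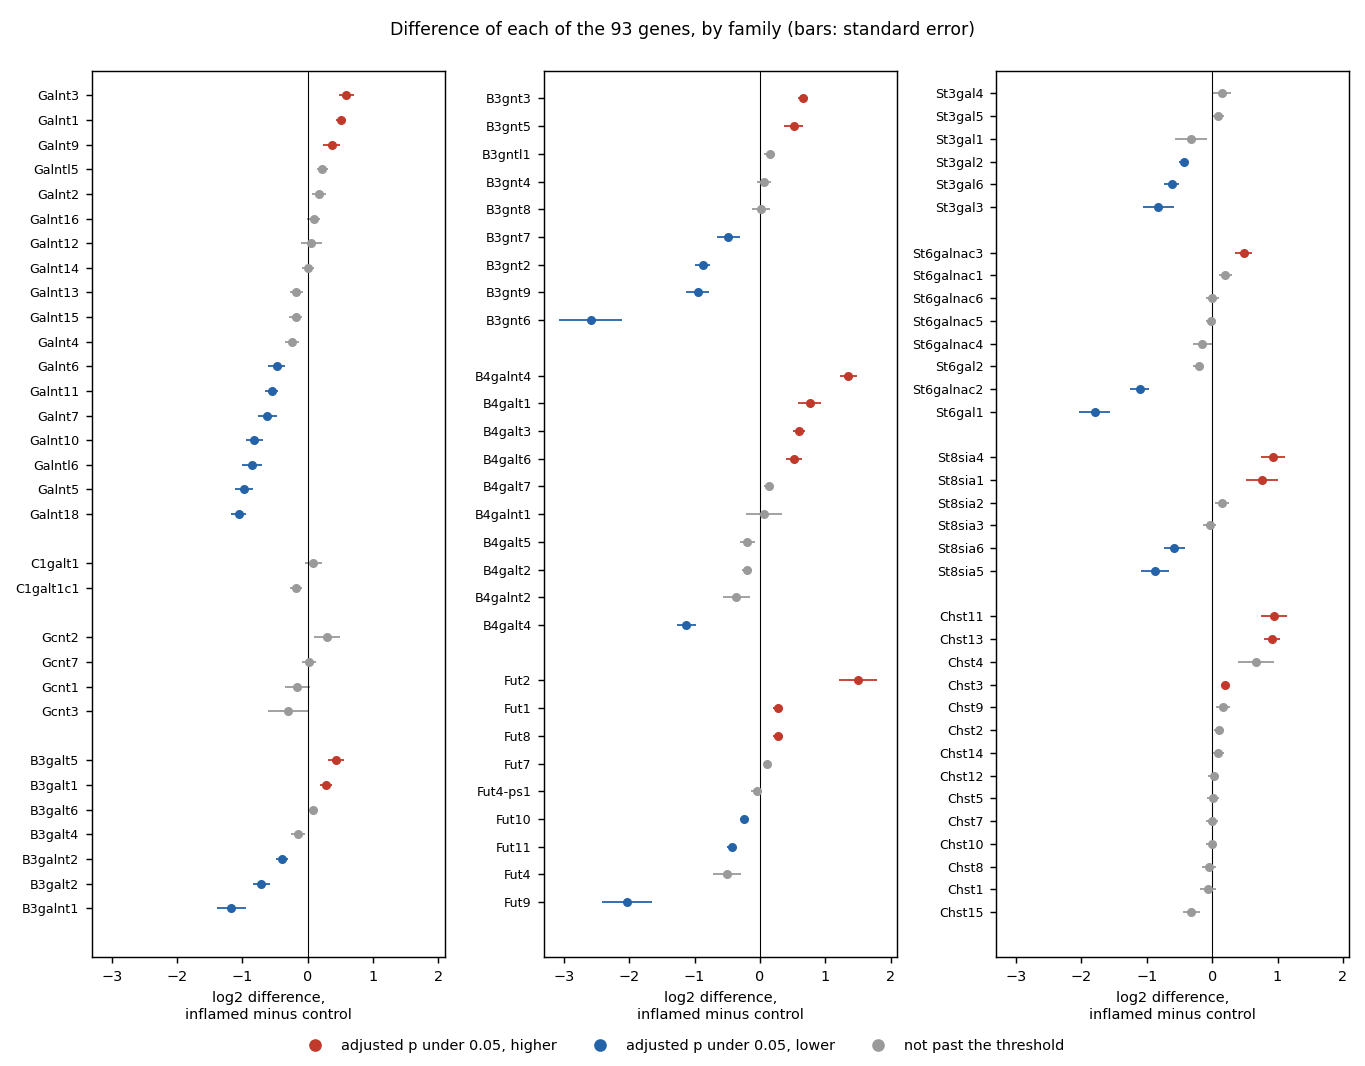
Difference of each of the 93 members between inflamed (n = 6) and control colons (n = 4), in log2 units, with the standard error of the limma fit as bars, by family and in order of size. Red points passed the test upward and blue points downward. The Chst and B4gal families hold mostly points at or above 0, and B3gnt6 and Fut9 lie farthest to the left.

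The enzymes that start O-glycans moved in both directions. Of the 18 Galnt genes, 3 rose, 7 fell and 8 did not pass, or 16.7% higher and 38.9% lower against 18.5% and 21.2% of all genes. Galnt18 was 4.46, 4.54 and 4.79 in severely inflamed and 4.23, 4.22 and 4.61 in moderately inflamed colons, against 5.64, 5.37, 5.52 and 5.61 in control colons. All 6 inflamed values lay below the control values, a fall by 1.06 (standard error 0.11, adjusted p = 2.94e-05). Galnt5 was 7.14, 7.54 and 6.84 in severely inflamed and 7.03, 7.28 and 7.34 in moderately inflamed colons, against 8.39, 7.94, 8.27 and 8.08 in control colons. Again the groups were apart, and the difference was -0.98 (standard error 0.14, adjusted p = 0.000157). The other falls were those of Galntl6 by 0.85, Galnt10 by 0.82, Galnt7 by 0.62, Galnt11 by 0.55 and Galnt6 by 0.48, all with the groups apart. Galnt7 and Galnt10 act on peptides that already carry GalNAc. These 5 genes, like the others outside the naming rule given with the methods, were named after their values were seen.

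Among the rises, Galnt1, a broadly expressed starter of O-glycans, was 10.05, 10.20 and 9.95 in severely inflamed and 10.05, 10.04 and 9.99 in moderately inflamed colons, against 9.72, 9.35, 9.53 and 9.56 in control colons. The inflamed colons lay within 0.25 of each other and above every control, a rise by 0.51 (standard error 0.08, adjusted p = 0.000364). Galnt3, known for protecting the hormone FGF23 from cleavage, rose by 0.59 (standard error 0.11, adjusted p = 0.00147), with inflamed values of 10.53 to 11.02 above control values of 10.04 to 10.44. Galnt9 rose by 0.37 (adjusted p = 0.0476), and 13 settings ended this call, among them leaving out severe replicate 2 or 3, moderate replicate 2 or 3, or any control (adjusted p from 0.0537 to 0.118). Galnt2, Galnt4, Galnt12, Galnt13, Galnt14, Galnt15, Galnt16 and Galntl5 did not pass. Of these, Galnt15 differed by -0.18 on its brighter probe set and by -0.86 on a dimmer one (adjusted p = 6.94e-05), and averaging both gave -0.52 (adjusted p = 0.00105). With probe sets averaged for all genes, Galnt13 (-0.22, adjusted p = 0.0277) and Galntl5, which has a single probe set (0.22, adjusted p = 0.043), also passed, and relative to the pan-epithelial list Galnt4 (-0.35, adjusted p = 0.014), Galnt13 (adjusted p = 0.0295) and Galnt15 (adjusted p = 0.0453) passed. A dimmer probe set of Galnt10 differed by 0.00 and another by 0.19, and under the mean over its probe sets Galnt10 differed by -0.21 (adjusted p = 0.0687). Galnt11 differed by -0.22 under that mean (adjusted p = 0.0543). Galnt7 and Galntl6, both lower, are neighbours in the genome, as are Galnt11, which fell, and Galntl5 (0.22, adjusted p = 0.051).

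Of the enzymes that build the mucin cores, B3gnt6 fell while C1galt1, its chaperone and the Gcnt enzymes did not pass the test. B3gnt6, the core 3 synthase, was 5.23, 5.35 and 5.96 in severely inflamed and 4.83, 6.22 and 4.95 in moderately inflamed colons, against 8.87, 6.15, 8.72 and 8.31 in control colons. Control replicate 2 stood with the inflamed colons, between severe replicate 3 and moderate replicate 2, and the other 3 controls lay above all inflamed values. The difference was -2.59 (standard error 0.48, adjusted p = 0.00116), a 6.01-fold fall, and -3.21 without control replicate 2. C1galt1, which makes core 1, was 10.71, 10.61 and 10.57 in severely inflamed and 10.11, 10.69 and 10.61 in moderately inflamed colons, against 10.76, 10.39, 10.22 and 10.47 in control colons. The groups overlapped, with a difference of 0.09 (standard error 0.13, adjusted p = 0.633), while 2 other probe sets of C1galt1 were higher in inflamed colons by 0.52 and 0.72, and the mean over its probe sets was higher by 0.44 (adjusted p = 0.00251). C1galt1c1, or Cosmc, the chaperone without which C1galt1 is inactive, differed by -0.18 (standard error 0.09, adjusted p = 0.153), and by -0.30 relative to the pan-epithelial list (adjusted p = 0.0292).

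On the brightest probe set of each gene, none of the 4 measured Gcnt genes passed in inflamed against control colons, nor did any at an unadjusted p under 0.05 or by the methods' t-test after adjustment. Gcnt1, which makes core 2, differed by -0.16 (standard error 0.19, adjusted p = 0.545). Gcnt3, which makes core 2 and core 4 in mucin-secreting tissue, was 9.39, 10.33 and 10.11 in severely inflamed and 9.20, 10.67 and 10.40 in moderately inflamed colons, against 10.77, 9.69, 10.13 and 10.70 in control colons. The spread within each group was larger than the difference of -0.31 (standard error 0.30, adjusted p = 0.461). Gcnt2, which adds the branch of the I antigen, differed by 0.29 (adjusted p = 0.264), and by 0.44 without moderate replicate 1 (adjusted p = 0.0142), the inflamed colon with the lowest value. Of its 7 dimmer probe sets, 2 were higher past the test, by 0.38 and 0.46 (adjusted p = 0.00636 and 0.00739 over all probe sets), and the others did not pass. Gcnt7 differed by 0.01 (adjusted p = 0.935).

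Sialic acid on the core GalNAc is the work of the St6galnac enzymes. St6galnac2 was 6.87, 6.92 and 7.25 in severely inflamed and 7.34, 7.05 and 7.25 in moderately inflamed colons, against 8.6, 7.81, 8.34 and 8.13 in control colons. All inflamed values lay below all control values, a fall by 1.11 (standard error 0.15, adjusted p = 0.000113), although a dimmer probe set differed by -0.03 and the mean over both was -0.57. Its neighbour in the genome, St6galnac1, the sialyl-Tn synthase, differed by 0.20 (standard error 0.10, adjusted p = 0.12), with inflamed values of 5.42 to 5.90 and control values of 5.28 to 5.59. It passed without severe replicate 1 (0.25, adjusted p = 0.0467) and under the mean over probe sets (0.19, adjusted p = 0.0267).

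Together the list of mucin core enzymes counted 1 rise (7.14%, against 18.5% of all genes) and 5 falls (35.7%, against 21.2%) among 14 measured. The other 8 genes did not pass, and the median difference was -0.27 against 0.03 for all genes. Galnt3 rose, and Galnt5, Galnt6, Galnt7, B3gnt6 and St6galnac2 fell. Galnt4, Galnt12, C1galt1, C1galt1c1, Gcnt1, Gcnt3, St6galnac1 and St3gal1 did not pass. In the same colons the 11 goblet cell markers averaged 11.38 to 12.26 in inflamed and 12.31 to 12.52 in control colons, with 4 genes lower and 0 higher, and at an unadjusted p under 0.05 with 8 lower and 0 higher (by the methods' t-test after adjustment, 3 lower). The colonocyte list averaged 10.05 to 11.24 in inflamed and 11.70 to 12.00 in control colons, with 6 of 12 lower and 1 higher.

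**Figure D2:**
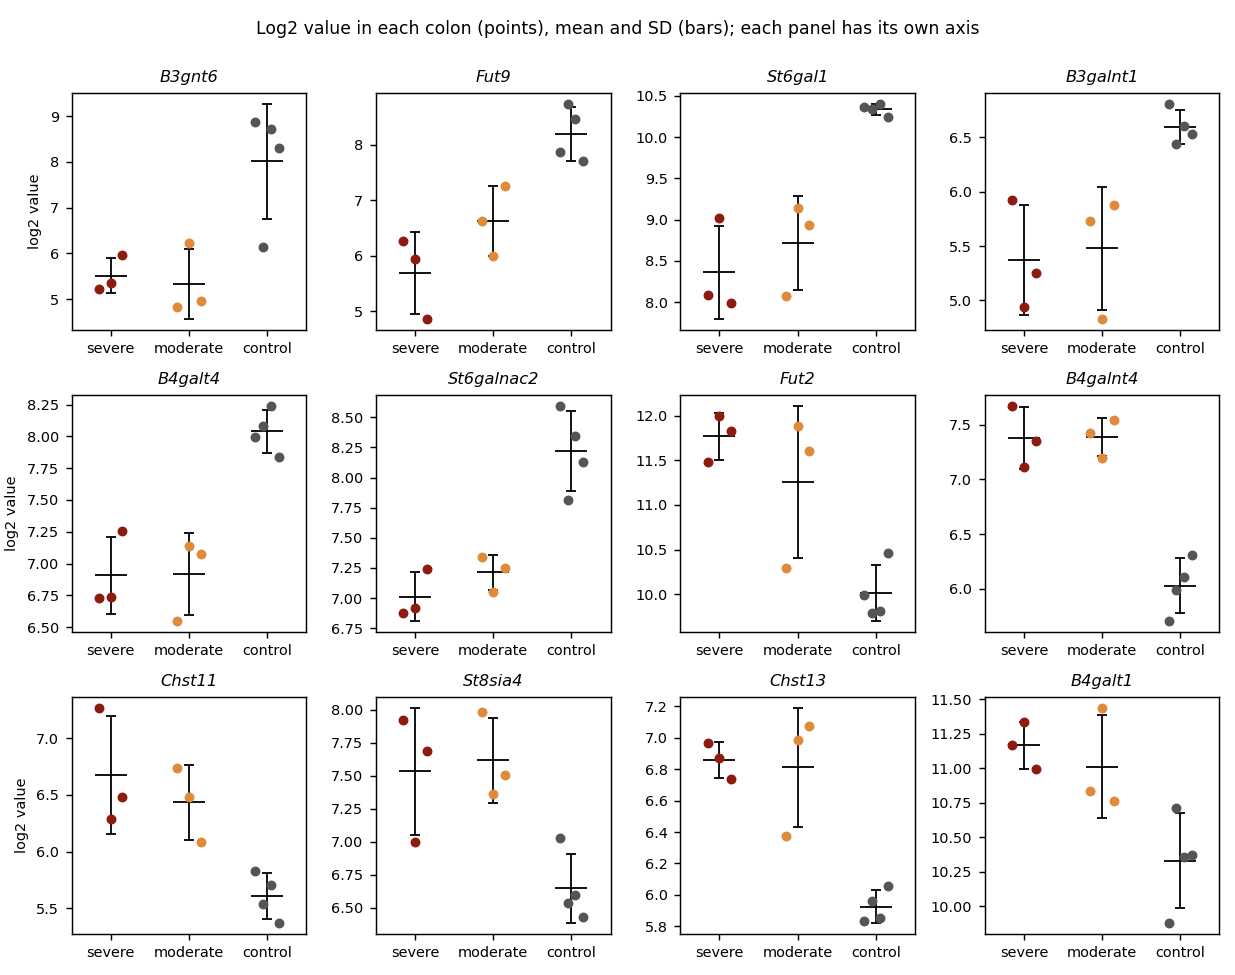
Log2 value of 12 members in each colon (points), by group, with the group mean and SD (horizontal line and bars), and an axis for each panel that does not start at 0. The first 6 panels hold falls and the last 6 rises, and 1 control colon of B3gnt6 lies among the inflamed values.

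Chain extension moved in both directions within the same families. Of 9 B3gn genes, 2 rose (22.2%, against 18.5% of all genes), 4 fell (44.4%, against 21.2%) and 3 did not pass. B3gnt3, which extends core 1, rose by 0.66 (standard error 0.08, adjusted p = 8.48e-05), with inflamed values of 8.64 to 9.05 above control values of 8.06 to 8.22. B3gnt5, which starts the lacto-series glycolipids, rose by 0.52 (adjusted p = 0.0136), with overlapping groups, and did not pass when its probe sets were averaged (adjusted p = 0.0839) or relative to the pan-epithelial list (0.40, adjusted p = 0.057). B3gnt2, the main enzyme of poly-N-acetyllactosamine, was 9.89, 10.18 and 9.75 in severely inflamed and 10.15, 10.41 and 10.18 in moderately inflamed colons, against 10.80, 11.11, 10.95 and 11.02 in control colons. The groups were apart, and it fell by 0.88 (standard error 0.12, adjusted p = 0.000141). B3gnt9 fell by 0.95 (standard error 0.18, adjusted p = 0.00119), with inflamed values of 5.20 to 5.76 below control values of 5.95 to 6.96. B3gnt7 fell by 0.48 (adjusted p = 0.0457), a call that 11 settings ended, among them leaving out severe replicate 1 or 3, moderate replicate 2 or 3, or control replicate 2, 3 or 4 (adjusted p from 0.0623 to 0.148). B3gnt4, B3gnt8 and B3gntl1 did not pass.

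Among the galactosyltransferases that build lactosamine, B4galt1, the main such enzyme of N-glycans, was 11.17, 11.33 and 11.00 in severely inflamed and 10.83, 11.44 and 10.76 in moderately inflamed colons, against 9.88, 10.71, 10.36 and 10.37 in control colons. Every inflamed value lay above every control value, by 0.05 at the closest, and the rise was 0.76 (standard error 0.17, adjusted p = 0.00373). B4galt3 rose by 0.59 (standard error 0.09, adjusted p = 0.000369), with inflamed values of 8.5 to 8.96 and control values of 8.07 to 8.32. B4galt4 was 6.73, 6.73 and 7.26 in severely inflamed and 6.55, 7.13 and 7.08 in moderately inflamed colons, against 8.0, 8.08, 8.24 and 7.84 in control colons. It was lower in 6 of 6 inflamed colons, by 1.13 (standard error 0.14, adjusted p = 7.94e-05). B4galt6, a lactosylceramide synthase, rose by 0.52 (adjusted p = 0.00579) with overlapping groups.

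The smallest adjusted p among the rises was that of B4galnt4, which makes the LacdiNAc unit of N-glycans. It was 7.68, 7.11 and 7.35 in severely inflamed and 7.42, 7.20 and 7.55 in moderately inflamed colons, against 5.71, 5.99, 6.11 and 6.31 in control colons. The lowest inflamed value lay 0.80 above the highest control value, a 2.56-fold rise (1.35, standard error 0.13, adjusted p = 1.67e-05). B4galt2, B4galt5, B4galt7, B4galnt1 and B4galnt2 did not pass, so that the 10 B4gal genes counted 4 rises, 1 fall and 5 that did not pass. The rises were 40.0% of the family and the fall 10.0%, against 18.5% and 21.2% of all genes. A dimmer probe set of B4galnt1 was higher past the test by 0.30 (adjusted p = 0.00719 over all probe sets), and B4galt2 passed relative to the pan-epithelial list (-0.32, adjusted p = 0.00891). B4galnt2, which makes the Sd(a) antigen of the mouse gut, differed by -0.36 (standard error 0.21, adjusted p = 0.199).

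Promoters were read for members whose groups were apart and whose differences were large, to show the sequence at the start of genes that moved in opposite directions. RefSeq windows from 250 bases before to 50 after the transcript start (build GRCm38.p6) matched 69 of the 93 members by Entrez gene identifier. B3gnt6, Fut2, Fut9 and St6galnac2 had no window and are named only. On both strands the windows were searched for TTCNNNGAA (STAT), TTTATG (Cdx), CAGCTG (an E-box) and GGGCGG (a GC box), and matches are in capitals. The B4galnt4 window, chr7:141060728-141061027 on the plus strand, held none of the motifs.
B4galnt4: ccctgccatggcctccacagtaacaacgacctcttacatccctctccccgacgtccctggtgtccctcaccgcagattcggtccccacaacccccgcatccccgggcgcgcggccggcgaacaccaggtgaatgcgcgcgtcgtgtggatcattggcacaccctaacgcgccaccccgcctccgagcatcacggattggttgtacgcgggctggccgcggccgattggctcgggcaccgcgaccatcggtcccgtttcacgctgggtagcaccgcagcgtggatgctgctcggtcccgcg
Over all 32851 windows 8.3% held the STAT motif, 11.9% the Cdx motif, 16.3% the E-box and 35.7% the GC box. Of the 89 windows of members, 4 (4.49%), 7 (7.87%), 16 (18%) and 53 (59.6%) held them in that order. Of 24 windows of members that rose, 2 held the STAT motif, 2 the Cdx motif, 5 the E-box and 15 the GC box, and of 21 windows of members that fell 1, 1, 3 and 12 did. The matches describe letters, not sites in use.

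The enzymes that finish N-glycans moved in both directions. Of 10 measured genes, 4 rose (B4galnt4, B4galt1, B4galt3 and Fut8), 2 fell (St6gal1 and St3gal6) and 4 did not pass, with a median of 0.16 against 0.03 for all genes. The shares of all genes were 18.5% higher and 21.2% lower. St6gal1, which adds α2,6-linked sialic acid to lactosamine, was 8.08, 9.02 and 7.99 in severely inflamed and 8.07, 9.14 and 8.93 in moderately inflamed colons, against 10.36, 10.34, 10.41 and 10.24 in control colons. The 4 controls lay within 0.17 of each other and at least 1.10 above every inflamed colon. The fall was 3.48-fold (-1.80, standard error 0.24, adjusted p = 0.000114), and a dimmer probe set fell by 0.38, so that the mean over both was -1.09. St6gal1 has 3 windows, of which the first, chr16:23224490-23224789 on the plus strand, is shown as that of the largest fall with a window. It held 1 Cdx motif and 1 GC box, and the other windows held no motif.
St6gal1: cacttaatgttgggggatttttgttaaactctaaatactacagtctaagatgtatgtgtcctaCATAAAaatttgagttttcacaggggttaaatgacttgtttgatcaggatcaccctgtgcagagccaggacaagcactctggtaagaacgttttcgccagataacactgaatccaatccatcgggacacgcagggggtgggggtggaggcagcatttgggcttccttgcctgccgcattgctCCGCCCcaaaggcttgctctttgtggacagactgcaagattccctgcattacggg

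Among the fucosyltransferases the α1,2 enzymes Fut2 and Fut1 rose, the latter on a dim probe set, and Fut9, a Lewis x enzyme, fell. Fut2, the secretor enzyme that puts α1,2-linked fucose on gut epithelium and mucins, was 11.48, 12.00 and 11.83 in severely inflamed and 10.29, 11.89 and 11.60 in moderately inflamed colons, against 9.99, 9.79, 9.81 and 10.46 in control colons. It was higher than every control in 5 of 6 inflamed colons, and moderate replicate 1 lay within the control range. The rise was 2.83-fold (1.5, standard error 0.29, adjusted p = 0.00153), 1.75 without moderate replicate 1, and a dimmer probe set rose by 1.25. Fut1, which makes the H antigen, rose by 0.28 (standard error 0.07, adjusted p = 0.00892), with inflamed values of 3.82 to 4.11 above control values of 3.60 to 3.74, around the arrays' lower quartile. Relative to the pan-epithelial list it did not pass (0.16, adjusted p = 0.0622).

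Fut9, which makes Lewis x with α1,3-linked fucose, was 6.27, 5.94 and 4.86 in severely inflamed and 6.63, 6.00 and 7.26 in moderately inflamed colons, against 7.87, 8.74, 8.47 and 7.72 in control colons. No inflamed value reached the controls, and the spread among inflamed colons was 2.40 units. Fut9 fell 4.11-fold (-2.04, standard error 0.38, adjusted p = 0.00117), and its other probe sets fell by 0.99 and 1.66. Fut8, which adds the core fucose of N-glycans, rose by 0.27 (standard error 0.08, adjusted p = 0.0165). That call ended without control replicate 2 (adjusted p = 0.0545) and relative to the pan-epithelial list (0.16, adjusted p = 0.12). Fut11 fell by 0.43 (standard error 0.07, adjusted p = 0.000623) and Fut10 by 0.24 (adjusted p = 0.0187, and 0.0582 and 0.0509 without control replicate 1 or 3).

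Fut7, the α1,3-fucosyltransferase of leukocyte selectin ligands, was 5.73, 5.80 and 5.75 in severely inflamed and 5.76, 5.70 and 5.70 in moderately inflamed colons, against 5.62, 5.64, 5.63 and 5.63 in control colons. The groups were apart by 0.06, and the difference of 0.11 did not pass limma's test (standard error 0.05, adjusted p = 0.126) but passed the methods' t-test (adjusted p = 0.00371). Fut4, the other such enzyme of leukocytes, differed by -0.50 (adjusted p = 0.0795) and passed without control replicate 1 (-0.66, adjusted p = 0.0346) and relative to the pan-epithelial list (-0.62, adjusted p = 0.0449). In all, the 9 Fut genes counted 3 rises, 3 falls and 3 that did not pass, or 33.3% higher and 33.3% lower against 18.5% and 21.2% of all genes.

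Sialyltransferases of the α2,3 type fell or did not pass. Of 6 St3gal genes, 0 rose (against 18.5% of all genes) and 3 fell (against 21.2% of all genes). At an unadjusted p under 0.05 the counts were also 0 and 3, as they were by the methods' t-test. Whether so small a family departs from the shares of all genes was not tested. St3gal6, which caps lactosamine, fell by 0.62 (standard error 0.12, adjusted p = 0.00142), with inflamed values of 10.23 to 10.75 below control values of 10.98 to 11.33, and 3 of its 4 other probe sets were also lower, by 0.29, 0.75 and 1.05. St3gal3 fell by 0.82 (standard error 0.23, adjusted p = 0.0142), with inflamed values of 8.09 to 9.18 that overlapped control values of 9.08 to 9.93, and did not pass without control replicate 1 (adjusted p = 0.0514). St3gal2, which acts on core 1 and gangliosides, fell by 0.43 (standard error 0.07, adjusted p = 0.000593). St3gal4, which with St3gal6 makes selectin ligands, differed by 0.16 (standard error 0.14, adjusted p = 0.395), and St3gal1 and St3gal5 did not pass.

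Of 10 genes of selectin ligand synthesis, 1 rose (B4galt1), 2 fell (St3gal3 and St3gal6) and 7 did not pass, with a median of 0.02. Among all genes 18.5% were higher and 21.2% lower (39.7% in all), with a median of 0.03. Chst4, which adds the sulfate of the L-selectin ligands of lymph node vessels, was 9.25, 9.64 and 9.17 in severely inflamed and 7.87, 9.28 and 9.23 in moderately inflamed colons, against 8.46, 8.16, 8.33 and 8.65 in control colons. In 5 of 6 inflamed colons the value was above every control, and moderate replicate 1 was below every control. The difference of 0.68 did not pass (standard error 0.27, adjusted p = 0.071), and without moderate replicate 1 it was 0.92 (adjusted p = 0.000186). The list of 6 endothelial markers averaged 5.37 to 5.97 in inflamed and 6.11 to 6.49 in control colons, with 4 genes lower. Which cells of the colon carried the Chst4 RNA was not tested.

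Glycolipid enzymes also moved in both directions. Of 12 measured, 3 rose (B4galt6, St8sia1 and St6galnac3), 3 fell (B3galnt1, St3gal2 and St8sia5) and 6 did not pass, with a median of -0.01. Over all genes 18.5% rose and 21.2% fell, with a median of 0.03, so movement in both directions was not particular to this list. B3galnt1, which makes globoside, was 5.93, 4.94 and 5.25 in severely inflamed and 5.73, 4.83 and 5.87 in moderately inflamed colons, against 6.81, 6.44, 6.60 and 6.53 in control colons. Each inflamed value was below each control value, a 2.25-fold fall (-1.17, standard error 0.22, adjusted p = 0.00119). Its window, chr3:69598911-69599210 on the minus strand, held 1 E-box and 1 GC box. It is shown beside that of St6gal1 as the next fall in size with a window.
B3galnt1: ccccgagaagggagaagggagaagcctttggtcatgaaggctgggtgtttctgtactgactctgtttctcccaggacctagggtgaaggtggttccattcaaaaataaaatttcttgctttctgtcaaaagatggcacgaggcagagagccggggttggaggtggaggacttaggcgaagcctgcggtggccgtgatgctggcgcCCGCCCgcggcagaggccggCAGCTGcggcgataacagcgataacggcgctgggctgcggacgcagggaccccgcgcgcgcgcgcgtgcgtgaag
St8sia1, which makes the ganglioside GD3, was 6.25, 6.35 and 5.87 in severely inflamed and 5.64, 6.63 and 5.21 in moderately inflamed colons, against 5.05, 5.28, 4.97 and 5.60 in control colons. The groups overlapped, with moderate replicate 3 among the controls and moderate replicate 2 highest. The rise of 0.77 (standard error 0.24, adjusted p = 0.0262) was carried by 2 other probe sets too (0.70 and 1.08), but it did not pass without severe replicate 2 or without control replicate 1, 2 or 3 (adjusted p from 0.0504 to 0.0813) or by the methods' t-test (adjusted p = 0.0689).

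Further polysialic and disialic acid enzymes moved in both directions. St8sia4, a polysialyltransferase that also acts in leukocytes, was 7.92, 7.0 and 7.69 in severely inflamed and 7.98, 7.37 and 7.5 in moderately inflamed colons, against 7.03, 6.53, 6.60 and 6.44 in control colons. The groups crossed at a single pair, severe replicate 2 and control replicate 1, and the rise was 0.93 (standard error 0.19, adjusted p = 0.00194). St8sia5, which extends gangliosides, fell by 0.88 (standard error 0.21, adjusted p = 0.00612), and St8sia6 fell by 0.58 (standard error 0.16, adjusted p = 0.0127). Both had overlapping groups. St8sia2, the other polysialyltransferase, and St8sia3 did not pass. St6galnac3, which sialylates core 1 and gangliosides, rose by 0.48 (standard error 0.13, adjusted p = 0.0107), but its other probe sets differed by 0.04 and -0.01, and their mean did not pass (0.17, adjusted p = 0.102). St6gal2, St6galnac4, St6galnac5 and St6galnac6 did not pass, St6galnac6 with a difference of 0.00. St6gal2 passed relative to the pan-epithelial list (-0.32, adjusted p = 0.0149).

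The β1,3-galactosyltransferases and -GalNAc transferases counted 2 rises (28.6%, against 18.5% of all genes) and 3 falls (42.9%, against 21.2%). The 2 that did not pass were B3galt4 and B3galt6. B3galt5, which makes type 1 chains, was 11.83, 12.20 and 12.11 in severely inflamed and 11.70, 12.24 and 12.10 in moderately inflamed colons, against 11.68, 11.40, 11.47 and 11.84 in control colons. Moderate replicate 1 and severe replicate 1 lay within the control range, and the rise was 0.43 (standard error 0.12, adjusted p = 0.0152). Its other 3 probe sets were higher too, by 0.44, 1.0 and 0.71, and the call ended without control replicate 2 or 3 (adjusted p = 0.0539 and 0.0509). B3galt1 rose by 0.28 (adjusted p = 0.0261) on a dim probe set (3.55 to 3.95 in inflamed and 3.39 to 3.45 in control colons), the other 4 probe sets differed by -0.13 to 0.03, and 6 settings ended the call. Those were the mean over probe sets (0.02, adjusted p = 0.787), the pan-epithelial reference (adjusted p = 0.157) and leaving out severe replicate 2 or control replicate 2, 3 or 4 (adjusted p from 0.0504 to 0.0644). B3galt2 fell by 0.71 (adjusted p = 0.00108), with inflamed values of 2.24 to 2.53 and control values of 2.70 to 3.45, all so far below the arrays' lower quartiles that the size of this fall is uncertain. B3galnt2, which acts on the O-mannose glycan of dystroglycan, fell by 0.39 (adjusted p = 0.00629), but did not pass when its probe sets were averaged (-0.17, adjusted p = 0.058).

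Of the 14 sulfotransferases 3 rose (21.4%, against 18.5% of all genes) and 0 fell (against 21.2% of all genes), and at an unadjusted p under 0.05 the counts were 4 and 1 (by the methods' t-test after adjustment, 3 and 0). The 3 that rose, Chst3, Chst11 and Chst13, are enzymes of chondroitin sulfate. Chst11, a chondroitin 4-O-sulfotransferase, was 7.27, 6.29 and 6.48 in severely inflamed and 6.73, 6.48 and 6.09 in moderately inflamed colons, against 5.83, 5.53, 5.71 and 5.37 in control colons. Severe replicate 1 was highest, no inflamed value fell to the control range, and the rise was 0.95 (standard error 0.19, adjusted p = 0.00219). Chst13, which sulfates the same position, was 6.97, 6.87 and 6.74 in severely inflamed and 6.38, 6.99 and 7.07 in moderately inflamed colons, against 5.83, 5.96, 5.85 and 6.05 in control colons. Again the groups were apart, and the rise was 0.91 (standard error 0.12, adjusted p = 0.000133).

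Chst3, a chondroitin 6-O-sulfotransferase, rose by 0.20 (standard error 0.06, adjusted p = 0.0249), and this call ended relative to the pan-epithelial list (0.08, adjusted p = 0.387), under the replicate block (0.19, adjusted p = 0.0791) and without control replicate 3 or 4 (adjusted p = 0.0603 and 0.0679). With Chst7, Chst12, Chst14, Chst15, B4galt7 and B3galt6, which did not pass, the 9 genes of glycosaminoglycan synthesis counted 3 rises and 0 falls. Those were 33.3% and 0.0%, against 18.5% and 21.2% of all genes. The 3 rises were Chst3, Chst11 and Chst13, already counted among the sulfotransferases. At an unadjusted p under 0.05 the counts were 3 and 1 (by the methods' t-test after adjustment, 3 and 0). Chst15 differed by -0.32 (adjusted p = 0.0677), and by -0.44 relative to the pan-epithelial list (adjusted p = 0.0278). Chst1, Chst2, Chst8, Chst9 and Chst10 did not pass either. Chst5, an intestinal GlcNAc 6-O-sulfotransferase, differed by 0.02 (standard error 0.09, adjusted p = 0.886). In these colons the myeloid markers averaged 9.09 to 11.05 in inflamed and 6.36 to 6.77 in control colons, with 8 of 8 higher, and the T cell markers 6.51 to 7.34 in inflamed and 5.17 to 5.33 in control colons, with 7 of 7 higher. The Chst11 window, chr10:82985247-82985546 on the plus strand, is shown as that of the largest rise with a window after B4galnt4, and held 1 E-box and 3 GC boxes.
Chst11: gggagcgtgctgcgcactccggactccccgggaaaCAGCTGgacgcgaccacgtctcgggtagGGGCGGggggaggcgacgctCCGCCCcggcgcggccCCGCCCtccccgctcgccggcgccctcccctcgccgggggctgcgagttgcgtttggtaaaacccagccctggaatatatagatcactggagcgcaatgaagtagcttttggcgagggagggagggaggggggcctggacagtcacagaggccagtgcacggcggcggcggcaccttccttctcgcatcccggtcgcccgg

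**Figure D3:**
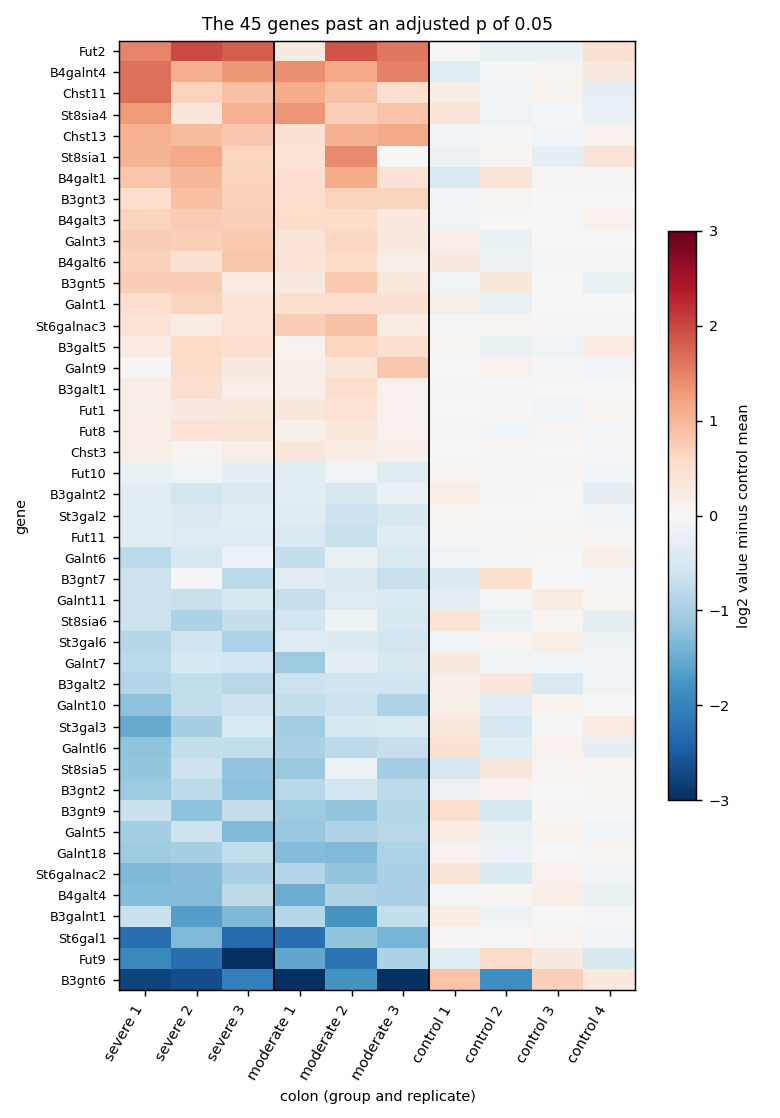
Log2 value minus the control mean of the 45 members past the test (rows, by size of the difference) in each of the 10 colons (columns: severe, moderate, control). The colour scale ends at -3 and 3, and the lowest value, of B3gnt6, is -3.34. Control replicate 2 is blue for B3gnt6, and moderate replicate 1 is pale for Fut2.

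Severe and moderate colitis were each set against the same 4 control arrays, so these counts are not independent of each other. In severely inflamed colons 18 members were higher and 24 lower than in control, against 16.1% and 18.9% of all genes (35.0% in all). In moderately inflamed colons 13 were higher and 22 lower, against 13.2% and 16.7% of all genes (29.9% in all). In both, 32 members passed with the same sign and 0 with opposite signs, 10 passed in severe colitis alone and 3 in moderate colitis alone. The first 10 were B3galt5, B3gnt5, B4galt6, Chst4, Fut8, Gcnt2, St3gal3, St6gal2, St8sia1 and St8sia6, and the other 3 were Chst3, Fut10 and St6galnac3. Without severe replicate 2 the count higher in severe colitis was 11, and without moderate replicate 2 the count higher in moderate colitis was 8.

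Compared directly, 0 of the 93 members passed between severe and moderate colitis (limma, smallest adjusted p = 0.877), as 0.0% of all genes did, so none of the 13 genes called in a single grade is shown to differ between grades. At an unadjusted p under 0.05 there were 6 members and 5.07% of all genes. Severe colons were higher for 47 members and lower for 46, with a median size of 0.12. The largest difference was that of Fut9, at -0.94 (95% confidence interval -1.84 to -0.04, adjusted p = 0.98), with 6.27, 5.94 and 4.86 in severe and 6.63, 6.00 and 7.26 in moderate colons. Gcnt2 was 9.90, 9.79 and 9.87 in severely inflamed and 8.80, 9.73 and 9.33 in moderately inflamed colons, against 9.26, 9.41, 9.07 and 9.37 in control colons. Severe colons were higher by 0.56 (interval 0.14 to 0.99, adjusted p = 0.877), each of them above all moderate colons. Chst4 differed by 0.56 (interval -0.14 to 1.26, adjusted p = 0.986), with moderate replicate 1 at 7.87. For genes with wide spread the intervals left room for large differences, as for B3gnt6 (0.18, interval -1.21 to 1.57) and St6gal1 (-0.35, interval -1.0 to 0.30).

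Most other probe sets of the called members ran the same way. Of the 45 called members 15 had a single probe set, and the other 30 had 55 further probe sets. Of these, 45 had the same sign, 28 of them past the test, and 10 had the opposite sign, 0 of them past it.

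Of 29 measured genes for sugar nucleotides, active sulfate and their transporters, which supply the enzymes' donors, 1 rose (3.45%, against 18.5% of all genes) and 13 fell (44.8%, against 21.2% of all genes), with a median of -0.17 against 0.03 for all genes. Gmds, the first enzyme from GDP-mannose to GDP-fucose, rose by 0.52 (standard error 0.08, adjusted p = 0.00044), with inflamed values of 12.16 to 12.54 above control values of 11.82 to 11.96. Other genes of GDP-fucose synthesis, named after their values were seen, fell. The differences were -0.185 for Gfus (adjusted p = 0.0499, groups overlapping), -0.64 for Fcsk (adjusted p = 0.000695) and -0.895 for Fpgt (adjusted p = 0.000367). The GDP-fucose transporter Slc35c1 did not pass (0.10, adjusted p = 0.407). Slc26a2, a sulfate transporter of the cell surface, was 10.13, 11.28 and 11.25 in severely inflamed and 11.05, 11.64 and 11.50 in moderately inflamed colons, against 12.76, 12.93, 12.74 and 12.83 in control colons. Every inflamed value was lower than every control value, and the fall was 1.68 (standard error 0.24, adjusted p = 0.000175). Ugdh, which makes UDP-glucuronic acid, fell by 1.36 (standard error 0.12, adjusted p = 1.03e-05). Further falls, named after their values were seen, were those of Papss1 and Papss2, which make the active sulfate donor PAPS, by 0.92 and 0.48. Those of Gne, Nanp, Nans and the Golgi transporter Slc35a1, all of the sialic acid route, were 0.40, 0.65, 0.28 and 0.54, with overlapping groups for Nans. Cmas, of the same route, did not pass (-0.06, adjusted p = 0.52). Nor did the PAPS transporters Slc35b2 (-0.12, adjusted p = 0.276) and Slc35b3 (-0.13, adjusted p = 0.296).

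Of 25 measured enzymes on the same glycans outside the naming families, 2 rose (Chsy1, a chondroitin synthase, by 0.99, and Ust, a uronyl sulfotransferase, by 0.21) and 11 fell, or 8.0% and 44.0% against 18.5% and 21.2% of all genes, with a median of -0.16. Gal3st2c, of the galactose 3-O-sulfotransferases, was 3.42, 3.95 and 3.99 in severely inflamed and 3.90, 4.44 and 4.80 in moderately inflamed colons, against 5.58, 6.86, 6.61 and 5.95 in control colons. All inflamed values were below the controls, and the fall was 2.17 (standard error 0.29, adjusted p = 0.000113). Neu1, the lysosomal sialidase, fell by 1.13 (standard error 0.11, adjusted p = 1.48e-05), with inflamed values of 8.90 to 9.41 and control values of 10.24 to 10.44.

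**Figure D4:**
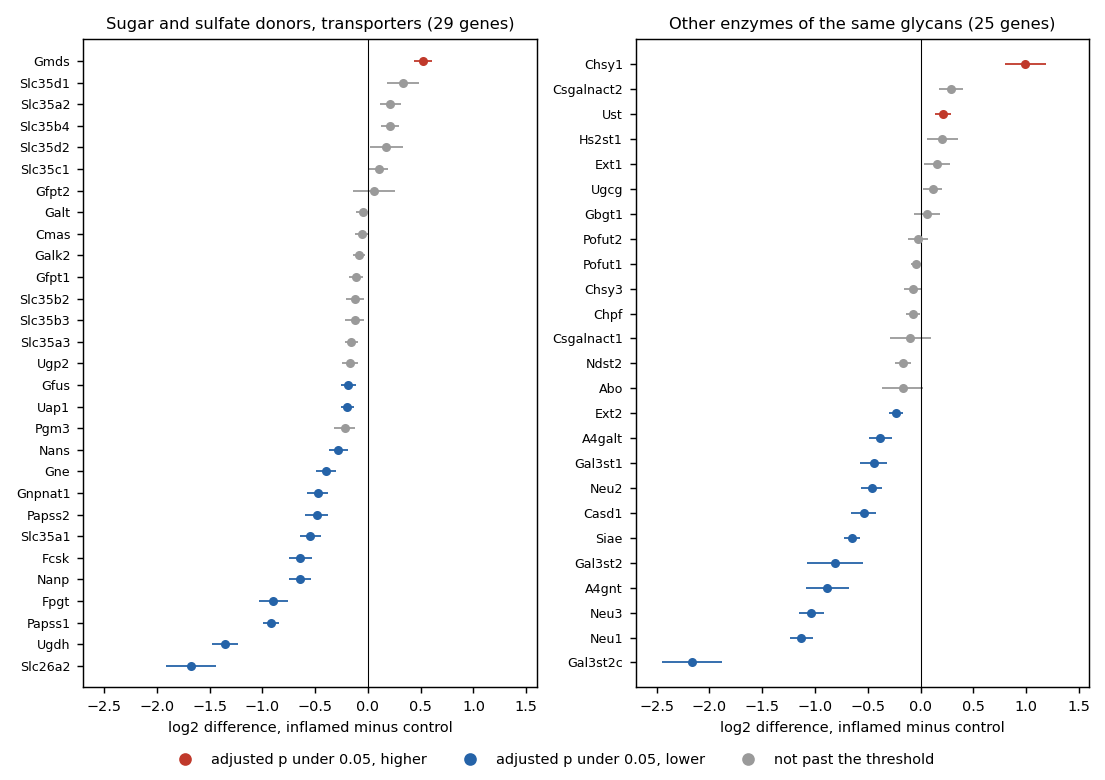
Differences between inflamed and control colons in log2 units, with standard errors, for 29 genes of sugar and sulfate donors and their transporters and for 25 other enzymes of the same glycans. Blue points (adjusted p under 0.05, lower) outnumber red points in both panels, by 13 to 1 and by 11 to 2.

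Of the 21 measured protein carriers 5 rose (23.8%, against 18.5% of all genes), 5 fell (23.8%, against 21.2%) and 11 did not pass, with a median of -0.02. Selplg, the selectin ligand PSGL-1 of leukocytes, rose by 2.17 (standard error 0.24, adjusted p = 3.83e-05), and Muc1, a membrane mucin, by 1.5 (standard error 0.42, adjusted p = 0.0139) with overlapping groups. Cd34, a sialomucin of vessels, showed a fall by 1.83 (standard error 0.28, adjusted p = 0.000298). Emcn, another, fell by 1.59 (standard error 0.24, adjusted p = 0.000283). The vessel mucins Madcam1 and Glycam1 differed by 0.35 (adjusted p = 0.153) and 0.18 (adjusted p = 0.249). To complete the counts, the membrane mucins Muc4 and Muc13 and the leukocyte sialophorin Spn rose by 0.81, 0.24 and 0.25. The groups overlapped for Muc4 and Muc13. Podxl, Muc3 and Muc2, the gel-forming mucin of goblet cells, fell by 0.74, 0.39 and 0.40, with overlapping groups for Muc2.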

How the data were processed

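Distal colon RNA was hybridised to whole-genome Affymetrix arrays, 1 per animal, from 10 Rag1-/- mice. The authors deposited log2 values per probe set, computed by RMA in the Expression Console software (versions not given in the sources used here), which corrects background, gives all arrays 1 distribution and summarises probes. The sources differ on RNA extraction (Trizol in the labels, a Qiagen kit in the methods). The number of arrays limits the precision.

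Of 45101 probe sets, 34945 were annotated to 1 gene and 932 to several, which were left out. Each of 18193 genes took its probe set of highest mean, as did the 93 members (189 probe sets, 0 members left out). Pearson's r between arrays was 0.9893 to 0.9958 within and 0.9625 to 0.9834 between inflamed and control colons.

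The test was limma's moderated test (version 3.58.1, R 4.3.3), two-sided. P-values were adjusted by Benjamini-Hochberg across the 18193 genes, and 0.05 was the threshold. One model held 2 groups, inflamed (6) and control (4), and another held 3, severe (3), moderate (3) and control. Labels call the samples biological replicates. The code was tested on simulated data. Plots were made in Python 3.11.15 with matplotlib 3.10.9.

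The members, lists and tests were chosen with earlier results of these data known. Members were named by rule when called with the groups apart and a size of at least 1, when among the 2 largest rises or falls of a family, when among the 3 largest differences between severe and moderate, or by role. Of the side lists the 2 largest rises and falls were named. Gcnt4 and B4galnt3 were not measured by a single-gene probe set. Alternatives were the value per gene, a filter on dim genes, array scaling, array weights, the variance model, the model's groups, the methods' t-test, a replicate block and each array left out in turn.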

Additional observations from a re-analysis of the deposited data

Results flagged for a closer look

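In groups of 4 or 6 colons a single value stood far from the rest for 5 of the 82 groups of named members examined, and chance alone gives such a gap in about 1 group in 20. Moderate replicate 1 was low for 3 genes. Its Fut2 value was 10.29, where the other inflamed colons lay between 11.48 and 12.00. Its Chst4 value was 7.87, where the others lay between 9.17 and 9.64, and its C1galt1 value was 10.11, where the others lay between 10.56 and 10.71. Moderate replicate 2 was low for Fut11, at 6.17, with the other inflamed colons between 6.37 and 6.47. Control replicate 1 was high for C1galt1c1, at 11.86, with the other controls between 11.47 and 11.52. Without moderate replicate 1 the rise of Fut2 was 1.75 and the difference of Chst4 was 0.92. Whether these values come from the tissue or from the arrays was not tested.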

How the results depend on the processing

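The comparison of inflamed with control colons called 20 members higher and 25 lower. Over 21 alternatives, of which those for the other lists and the model of 3 groups for named members were chosen after seeing the data, 36 to 45 of the 45 calls were kept with the same sign. The lowest number, 36, came with dim genes left out, where 9 called members were not tested. The call was kept in every setting by 27 members and wherever tested by another 3 (Galnt18, B3galt2 and St8sia6), and was lost at least once by 15, with 0 called members reversed. Of the 48 members not called, 15 passed at least once. The counts were 14 higher and 33 lower relative to the pan-epithelial list, 21 and 24 with arrays centred on the median, 15 and 21 with dim genes left out (of the 11810 genes kept), 20 and 24 under the mean over probe sets, 21 and 28 with array weights, and 19 and 24 by the methods' t-test after adjustment (23 and 27 before it). With each array left out in turn the counts ranged from 15 to 22 higher and from 24 to 27 lower. In severe against control colons they ranged from 11 to 19 higher and from 20 to 25 lower, the lowest count of 11 without severe replicate 2. In moderate against control colons they ranged from 8 to 16 higher and from 16 to 22 lower, the lowest count of 8 without moderate replicate 2. The cause of these shifts was not tested. Between severe and moderate colons 0 members passed in any setting.

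Whether replicate numbers pair the samples was not settled. Over 9 pairs of same-numbered colons the correlation of their deviations ran from -0.08 to 0.29, and 2 pairs were above 0.1. Those 2 were severe and moderate replicate 1 (0.29) and severe and moderate replicate 2 (0.25), while severe and moderate replicate 3 gave -0.03. Differently numbered pairs were not computed, so the values have no reference and a shared batch was not tested. With the replicate number as a block 17 members were higher and 25 lower, and 41 of the 45 calls were kept. Galnt9 (adjusted p = 0.0971), Chst3 (0.0791), Fut8 (0.0632) and St3gal3 (0.0503) no longer passed.

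Dim probe sets compress differences, and 9 called members had a mean below the highest array median. Without calls of detection, signal over background was not examined.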
